A study of Mus musculus with 4 samples.

Results

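The genes described here encode 10 proteins of heme breakdown and iron handling, Hmox1, Blvrb, Fth1, Ftl1, Slc40a1, Tfrc, Slc11a1, Slc11a2, Steap4 and Fbxl5. They were taken by gene name from 24706 mouse genes measured by RNA-seq, all 10 were found, and all 10 had enough expression to be tested. The data are 4 libraries labelled as myeloid cells, 2 with the genotype label wt and 2 with the label cko. The question of the design is which genes differ in myeloid cells when Pdcd1, the gene of the inhibitory receptor PD-1, is deleted there.

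In the cko mice, both copies of Pdcd1 carry LoxP sites (PD-1f/f) and Cre recombinase is made from the LysM locus (LysM-Cre), so that the floxed part of Pdcd1 should be lost in macrophages, monocytes and neutrophils. The wt controls are called PD-1f/f in the figures of the study and wild-type in its methods. The cells are described as CD11b+ cells taken from the liver by flow cytometry at postnatal day 3, whereas the methods describe RNA of livers at postnatal day 2 and name no sort. No label says that the 2 libraries of a group came from separate animals. Sex-linked genes, given below, differed between the 2 wt libraries, so these did not share 1 animal. For the 2 cko libraries nothing tells this. The p-values measure only the spread between these libraries, which may be technical within cko. The data are bulk values, in which fewer cells of a type and less RNA per cell cannot be told apart.

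Macrophages of the fetal and neonatal liver take up aged red cells and the nuclei that erythroblasts expel, and they recycle the heme iron. Heme oxygenase opens the heme ring and frees iron and biliverdin, which biliverdin reductases turn into bilirubin, while iron is stored in ferritin or leaves the cell through ferroportin. When iron is scarce, iron regulatory proteins bind hairpins called iron-responsive elements in the messenger RNA, where they block translation if the hairpin lies in the 5′ UTR and protect the message if it lies in the 3′ UTR.

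Such hairpins are shown for the 4 genes of the list in which they were found, Fth1, Ftl1, Slc40a1 and Tfrc. They were searched for because the 10 include genes known to carry them. The search asked for an unpaired C, 5 bases, the loop CAGTGN and 5 bases that pair with those before the loop (G-U pairs allowed), on the sense strand of GENCODE M21 transcripts (GRCm38). Each hairpin is printed 5′ to 3′ on the strand of its gene, with 27 bases and the loop in capitals.
Fth1, 5′ UTR, chr19:9982733-9982759, plus strand: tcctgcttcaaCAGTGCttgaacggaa
Ftl1, 5′ UTR, chr7:45459780-45459806, minus strand: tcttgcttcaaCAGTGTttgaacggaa
Slc40a1, 5′ UTR, chr1:45925466-45925492, minus strand: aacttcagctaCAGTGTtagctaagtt
Tfrc, 3′ UTR, chr16:32631220-32631246, plus strand: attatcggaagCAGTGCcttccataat
Tfrc, 3′ UTR, chr16:32631599-32631625, plus strand: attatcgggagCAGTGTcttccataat
Tfrc, 3′ UTR, chr16:32631664-32631690, plus strand: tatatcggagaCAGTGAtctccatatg
Tfrc, 3′ UTR, chr16:32631711-32631737, plus strand: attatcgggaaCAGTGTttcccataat
A match in a UTR was found in 4 of the 10 genes and in 160 of 21901 protein-coding genes (0.731%). Since the search was chosen with such genes in mind, the share among the 10 is no independent result. The other 6 genes had no match to these letters in a UTR, which says nothing about hairpins of another shape.

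Expression is given as FPKM, which is reads scaled to gene length and to the reads counted in each library, as the authors deposited it. The libraries held between 17691505 and 22212407 counted reads. The targeted gene Pdcd1 was measured at 28.5 and 34.7 FPKM in wt replicates 1 and 2 and at 17.1 and 21.4 FPKM in cko replicates 1 and 2, so that the groups did not overlap and cko libraries still held Pdcd1 reads (log2 fold change −0.69, SE 0.19, limma adjusted p = 0.218). Lyz2, the gene at the LysM locus into which Cre is inserted, had 31306, 32147, 10422 and 8127 FPKM in the same order. The myeloid label was met by Itgam, the gene of CD11b, at 48.5 to 54.3 FPKM and by Ptprc, the gene of CD45, at 58.1 to 75.1 FPKM in the 4 libraries.

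The libraries of a group also differed from each other. On the first principal component of all tested genes (55.1% of the variance) wt replicates 1 and 2 lay at −26.7 and −22.2, cko replicate 1 at 11.4 and cko replicate 2 at 37.4. Of the 4 libraries, wt replicate 2 alone expressed the Y-linked genes Ddx3y (24.9 FPKM) and Eif2s3y (16.2 FPKM) and had Xist at 0.0119 FPKM, while the other 3 libraries had Xist between 4.91 and 7.98 FPKM. Sex and replicate therefore cannot be told apart within the wt group. Values without a library are given below where they change a result.

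Differences were tested with limma on log2(FPKM + 1) over 10779 genes, so log2 fold changes (cko minus wt) understate the change of genes with low FPKM. No gene passed a log2 fold change of at least 1 with an adjusted p under 0.05, 0% of all genes and 0 of the 10 (the smallest adjusted p of any gene was 0.129). limma voom on recovered reads called 4 genes there, none of them among the 10, and 1768 genes had an unadjusted p under 0.05 in the fit of FPKM. At a log2 fold change above 1 and an unadjusted p under 0.01, 3 of the 10 were called, Hmox1, Steap4 and Fbxl5, all higher in cko, beside 2.29% of all genes (1.88% higher and 0.408% lower). Over all genes this was 203 higher and 44 lower, a split that was 142 and 72 after median-of-ratios rescaling of the libraries and 350 and 17 after rescaling without the erythroid and hepatocyte genes, which put the median log2 fold change of all tested genes at −0.01 and 0.27. At an unadjusted p under 0.05, 5 of the 10 were higher and 2 lower, beside 11.4% and 4.95% of all genes. The groups did not overlap for 9 of the 10, 6 higher and 3 lower in cko, against 51.6% of all genes (33.6% higher and 18% lower). The median log2 fold change was 0.62 over the 10 genes and 0.09 over all tested genes, of which 60.4% lay above 0.

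**Figure D1:**
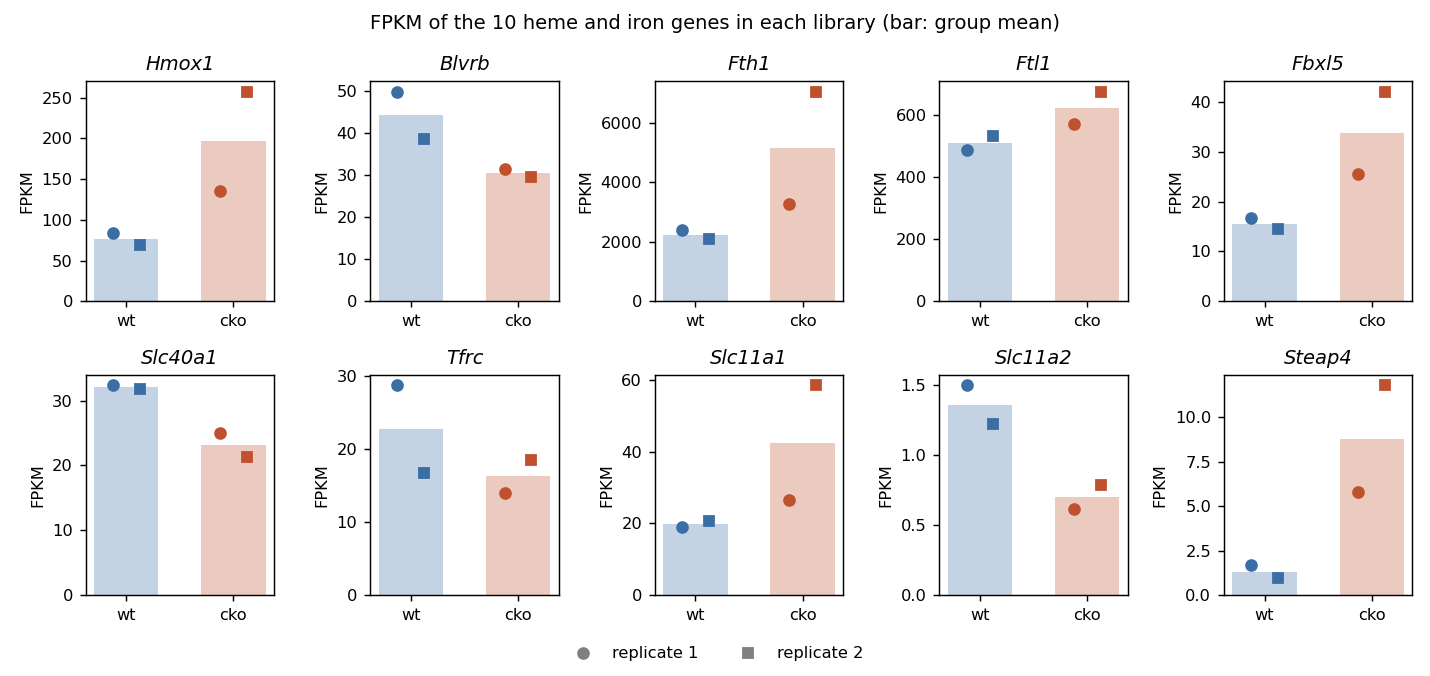
FPKM of the 10 genes in each library, on linear axes that start at 0, with libraries as points (circle for replicate 1, square for replicate 2) and the group mean as a bar. The 6 genes that were higher in cko and the 3 that were lower show no overlap between groups, while the Tfrc points of the groups overlap. For all genes but Blvrb and Slc40a1, cko replicate 2 lies above cko replicate 1.

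Of the heme breakdown genes described here, Hmox1 was higher in both cko libraries and Blvrb was lower in both. Hmox1 encodes the inducible heme oxygenase and lies on chromosome 8 from 75093621 to 75100589 (GRCm38, plus strand). It had 84.3 and 68.7 FPKM in wt replicates 1 and 2 and 135 and 257 FPKM in cko replicates 1 and 2, from 2263 to 7975 reads. Both cko libraries lay above both wt libraries, and cko replicate 2 held 1.90 times the FPKM of cko replicate 1. The mean was 76.5 ± 11.04 FPKM (SD, n = 2) in wt and 196 ± 86.4 FPKM (SD, n = 2) in cko, a ratio of 2.57. The log2 fold change was 1.28 (SE 0.32, 95% interval 0.49 to 2.07, adjusted p = 0.214), and it was 0.82 without cko replicate 2 and 1.75 without cko replicate 1.

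Blvrb encodes the flavin reductase that is also called biliverdin reductase B and is abundant in red cells. It lies on chromosome 7 from 27447978 to 27466144 (plus strand). It had 49.99 and 38.6 FPKM in wt and 31.6 and 29.6 FPKM in cko, in replicate order. Both cko libraries lay below both wt libraries, and wt replicate 1 was the highest. The means were 44.3 ± 8.03 and 30.6 ± 1.40 FPKM (SD, n = 2 each), and the log2 fold change was −0.51 (SE 0.18, 95% interval −0.95 to −0.07, adjusted p = 0.261), with −0.33 without wt replicate 1.

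The related genes Hmox2 and Blvra differed less. Hmox2, the constitutive heme oxygenase, had 14.6 and 15.1 FPKM in wt and 17.1 and 16.04 FPKM in cko (log2 fold change 0.14, SE 0.15, adjusted p = 0.648), a small step without overlap. Blvra, the main biliverdin reductase of adult tissue, had 16.8, 17.3, 15.2 and 23.0 FPKM in wt replicates 1 and 2 and cko replicates 1 and 2, and the groups overlapped. The ratio of Hmox1 to Hmox2 FPKM was 5.77 and 4.53 in wt and 7.93 and 16.1 in cko. The ratio of Hmox1 to Blvrb FPKM was 1.69 and 1.78 in wt and 4.29 and 8.70 in cko. These ratios were chosen after the values were seen and were not tested.

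Ferritin, the iron store, is a shell of heavy chains, which oxidize iron, and light chains, which help to form the mineral core. Both chains were higher in cko, the heavy chain by more. Fth1, the heavy chain, lies on chromosome 19 from 9982703 to 9985092 (plus strand) and had 2382 and 2103 FPKM in wt and 3277 and 7056 FPKM in cko. Both cko libraries were higher than both wt libraries, and cko replicate 2 stood far above the rest. Fth1 took 0.484% and 0.460% of all FPKM in the wt libraries and 0.794% and 1.75% in the cko libraries, and its rank among all genes was 17 and 19 in wt and 9 and 7 in cko. The means were 2242.5 ± 197 and 5167 ± 2672 FPKM (SD, n = 2 each), a ratio of 2.30, with a log2 fold change of 1.10 (SE 0.36, 95% interval 0.20 to 2.01, adjusted p = 0.253), which was 0.55 without cko replicate 2.

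Ftl1, the light chain, lies on chromosome 7 from 45457944 to 45459884 (minus strand). It had 486 and 531 FPKM in wt and 571 and 675 FPKM in cko. The cko libraries were again the higher pair, by a small step, and the mean was 509 ± 31.1 FPKM in wt and 623 ± 74.0 FPKM in cko (SD, n = 2 each). The log2 fold change was 0.29 (SE 0.15, 95% interval −0.09 to 0.67, adjusted p = 0.394), and the interval includes 0. The ratio of Fth1 to Ftl1 FPKM was 4.90 and 3.96 in wt and 5.74 and 10.5 in cko, so that cko replicate 2 held the most heavy chain message for its light chain message.

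Both chains have pseudogenes of near-identical sequence, among which reads can be split. Of the named copies, Ftl1-ps1 had the most, with 7.47 and 8.34 FPKM in wt and 10.4 and 12.5 FPKM in cko. Fth-ps2 had 2.27 to 5.997 FPKM and the other copies at most 1.54 FPKM. All were far below the values of Fth1 and Ftl1, so reads counted at the copies were few beside those of the parent genes.

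Fbxl5 encodes the iron-sensing F-box protein that marks iron regulatory protein 2 for degradation when iron is plentiful, and lies on chromosome 5 from 43744615 to 43821638 (minus strand). It had 16.8 and 14.4 FPKM in wt and 25.5 and 42.1 FPKM in cko. Both cko libraries were above both wt libraries, again with cko replicate 2 highest. The means were 15.6 ± 1.67 and 33.8 ± 11.7 FPKM (SD, n = 2 each), a ratio of 2.17. On the log2 scale the difference was 1.03 (SE 0.26, 95% interval 0.38 to 1.68, adjusted p = 0.214), and it was 0.68 without cko replicate 2.

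The iron regulatory proteins themselves differed little between the groups. Aco1, which encodes iron regulatory protein 1, had 4.74 and 6.89 FPKM in wt and 6.005 and 6.14 FPKM in cko, and the groups overlapped. Ireb2, which encodes iron regulatory protein 2, had 4.55 and 4.17 FPKM in wt and 5.11 and 5.01 FPKM in cko (log2 fold change 0.18, SE 0.17, adjusted p = 0.625), without overlap.

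Slc40a1 encodes ferroportin, the known exporter of iron from cells, and was lower in cko while the ferritin genes were higher. It lies on chromosome 1 from 45908068 to 45926523 (minus strand) and had 32.4 and 31.7 FPKM in wt and 25.1 and 21.3 FPKM in cko. The wt libraries were close to each other, and both cko libraries lay below them. The means were 32.0 ± 0.451 and 23.2 ± 2.67 FPKM (SD, n = 2 each), and wt held 1.38 times the cko mean. As a log2 fold change this was −0.46 (SE 0.15, 95% interval −0.84 to −0.07, adjusted p = 0.257), and it was −0.34 without cko replicate 2.

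Of the uptake and transport genes, Tfrc encodes transferrin receptor 1, which brings in transferrin-bound iron and is abundant in erythroid precursors. It lies on chromosome 16 from 32608920 to 32632794 (plus strand) and had 28.7 and 16.8 FPKM in wt and 14.0 and 18.5 FPKM in cko. It was the 1 gene of the 10 whose groups overlapped, with wt replicate 1 alone high and wt replicate 2 between the cko libraries. The log2 fold change was −0.42 (SE 0.29, 95% interval −1.14 to 0.29, adjusted p = 0.484), which was −0.05 without wt replicate 1 and −0.80 without wt replicate 2.

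Slc11a1 and Slc11a2 are sister transporters that move iron out of endosomes and phagosomes, and they differed in opposite directions. Slc11a1 (NRAMP1, found in phagocytes) lies on chromosome 1 from 74375195 to 74386062 (plus strand) and had 19.1 and 20.7 FPKM in wt and 26.5 and 58.5 FPKM in cko. The groups did not overlap, and cko replicate 2 was more distant from cko replicate 1 than the latter was from wt. The means were 19.9 ± 1.17 and 42.5 ± 22.6 FPKM (SD, n = 2 each), with a log2 fold change of 0.96 (SE 0.36, 95% interval 0.05 to 1.86, adjusted p = 0.285) that was 0.40 without cko replicate 2.

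Slc11a2 (DMT1) is the transporter of erythroid precursors and gut epithelium and lies on chromosome 15 from 100387898 to 100425072 (minus strand). It was at 1.49 and 1.22 FPKM in wt and at 0.613 and 0.783 FPKM in cko, from 73 to 211 reads per library. Both cko libraries were below both wt libraries. Its log2 fold change was −0.47 (SE 0.26, 95% interval −1.12 to 0.18, adjusted p = 0.412), but at these low values the added 1 FPKM shrinks it, and the log2 ratio of the group means was −0.96. The ratio of Slc11a1 to Slc11a2 FPKM was 12.7 and 16.96 in wt and 43.3 and 74.7 in cko.

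Steap4 encodes a metalloreductase that reduces ferric iron and copper and is known from inflamed tissue. It lies on chromosome 5 from 7960457 to 7982213 (plus strand), and had 1.68 and 0.943 FPKM in wt and 5.80 and 11.8 FPKM in cko, from 118, 56, 343 and 658 reads. Even the lower cko library was well above both wt libraries. The means were 1.31 ± 0.524 and 8.79 ± 4.23 FPKM (SD, n = 2 each), a ratio of 6.70. The log2 fold change was 2.03 (SE 0.35, 95% interval 1.15 to 2.91, adjusted p = 0.183), with 1.57 without cko replicate 2, and on the log2 ratio of the group means it was 2.74. From the highest log2 fold change down it ranked 40 among the 10779 genes, the foremost of the 10. Steap3, the ferrireductase that serves transferrin-bound iron in erythroid cells, had 4.55 and 2.35 FPKM in wt and 3.17 and 2.76 FPKM in cko, and the groups overlapped.

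**Figure D2:**
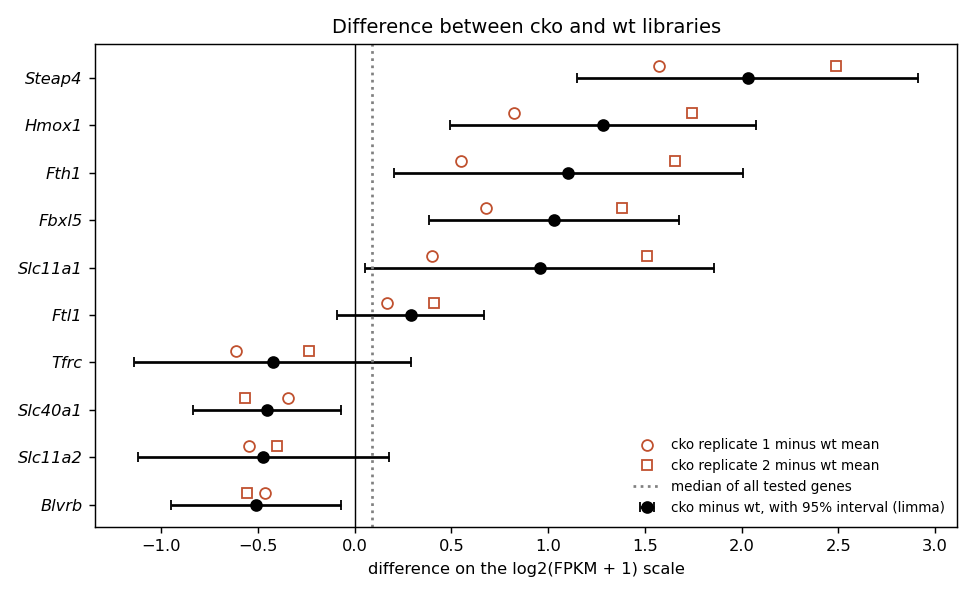
Log2 fold change of each of the 10 genes (cko minus wt, log2(FPKM + 1)), with lines for the 95% interval of the limma fit, open points for each cko library minus the wt mean, and a dotted line at the median of all tested genes. Hmox1, Fth1, Slc11a1, Steap4 and Fbxl5 have intervals above 0, Blvrb and Slc40a1 have intervals below 0, and those of Ftl1, Tfrc and Slc11a2 include 0.

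The 5 genes with the largest positive log2 fold changes, Steap4, Hmox1, Fth1, Fbxl5 and Slc11a1, all had their highest value in cko replicate 2, as did Ftl1. The log2 fold change of Steap4 was 2.26 without wt replicate 1 and 1.80 without wt replicate 2. It was 2.49 without cko replicate 1 and 1.57 without cko replicate 2. Without cko replicate 2 the log2 fold change was 0.82 for Hmox1, 0.68 for Fbxl5, 0.55 for Fth1 and 0.40 for Slc11a1. The median log2 fold change of the 10 was 0.28 without cko replicate 2. No log2 fold change of the 10 turned its sign in any alternative run, but many of these runs could not turn it, as described at the end.

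The order of levels, which FPKM allows to be compared per length, was Fth1, then Ftl1, then Hmox1 in every library, and Steap4 and Slc11a2 were the lowest pair in every library. Between these ends the order differed. Slc40a1 had rank 5 of the 10 in both wt libraries and rank 7 in both cko libraries, whereas Slc11a1 had ranks 7 and 6 in wt and ranks 5 and 4 in cko. Blvrb had rank 4 in all but cko replicate 2, where it had rank 6. Within wt replicate 2, Slc11a1 at 20.7 FPKM, Tfrc at 16.8 FPKM and Fbxl5 at 14.4 FPKM lay closer to each other than the wt libraries did for Tfrc.

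**Figure D3:**
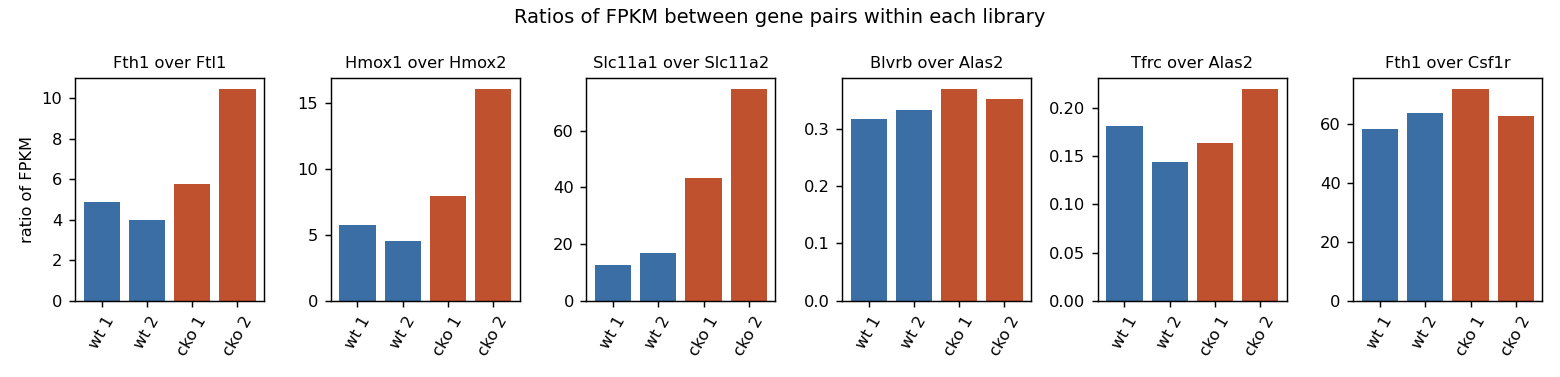
Ratios of FPKM between pairs of genes as bars, 1 bar for each library, on linear axes that start at 0. The ratios Fth1 to Ftl1, Hmox1 to Hmox2 and Slc11a1 to Slc11a2 were higher in both cko libraries than in both wt libraries and highest in cko replicate 2, while Blvrb to Alas2 (0.316 to 0.369), Tfrc to Alas2 (0.144 to 0.220) and Fth1 to Csf1r (58.3 to 71.8) spanned narrower ranges as a fold (1.17, 1.52 and 1.23 from lowest to highest, against 2.64 to 5.86 for the first 3).

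Markers of other cell types differed between the same libraries. Of 18 tested erythroid genes 17 were lower in cko, 12 without overlap and 8 at an unadjusted p under 0.05. Over all genes, 18% were lower without overlap and 4.95% were lower at that p. The summed FPKM of the erythroid list was 3907 and 2466 in wt and 1530 and 1618 in cko. Hba-a1, the α-globin gene, had 1961, 1366, 826 and 840 FPKM in wt replicates 1 and 2 and cko replicates 1 and 2, and Alas2, the erythroid enzyme of heme synthesis, had 158, 116, 85.6 and 84.2 FPKM. Blvrb followed the same order of libraries as the summed erythroid genes except within cko, and its ratio to Alas2 was 0.316 and 0.333 in wt and 0.369 and 0.351 in cko. Tfrc had a ratio to Alas2 of 0.182 and 0.144 in wt and 0.164 and 0.220 in cko, with overlap. In an alternative run, erythroid and hepatocyte genes were removed and the libraries rescaled to equal sums of FPKM. There the log2 fold change was −0.30 for Blvrb and −0.25 for Slc40a1, both without an unadjusted p under 0.05. The median of all tested genes was 0.27. The removed genes held only 0.387% to 0.813% of the FPKM of a library. The rescaling also raised genes that were higher in cko, such as Hmox1 from 1.28 to 1.49. That run therefore does not measure red cell content. The part of red cell precursors in the values of Blvrb, Tfrc, Slc11a2 and Slc40a1 was not tested.

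The summed FPKM of the monocyte markers and of the macrophage markers was highest in cko replicate 2, the library with the highest Hmox1, Fth1, Slc11a1, Steap4 and Fbxl5. Of 12 tested monocyte genes 10 were higher in cko, 5 without overlap and 2 at an unadjusted p under 0.05. Over all genes, 33.6% were higher without overlap and 11.4% were higher at that p. The monocyte list had summed FPKM of 609 and 553 in wt and 593 and 791 in cko. Of its 12 tested genes, 10 were highest in cko replicate 2. Csf1r, the receptor of monocytes and macrophages, had 40.9 and 33.0 FPKM in wt and 45.6 and 113 FPKM in cko. Relative to Csf1r, Hmox1 was 2.06 and 2.08 in wt and 2.97 and 2.28 in cko, and Fth1 was 58.3 and 63.8 in wt and 71.8 and 62.5 in cko, so that cko replicate 2 was not the highest library in either ratio. These ratios too were chosen after the values were seen. Csf1r was 1 of the 3 genes most like Hmox1 among 155, which by itself narrows its ratio to Hmox1. The monocyte gene with the highest FPKM, Ly6c2, had 343 and 360 FPKM in wt and 333 and 315 FPKM in cko. It was 1 of the 2 monocyte genes lower in cko.

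Of 14 tested macrophage genes 8 were higher and 6 lower in cko, with summed FPKM of 435 and 311 in wt and 319 and 540 in cko. Folr2 was too low to be tested, at 0 in both wt libraries and at 0.173 and 0.146 FPKM in cko, from 5 and 4 reads. Adgre1, the gene of F4/80, had 7.27 and 5.37 FPKM in wt and 4.64 and 10.03 FPKM in cko. Marco, a scavenger receptor of macrophages, had 44.0 and 24.3 FPKM in wt and 30.8 and 94.0 FPKM in cko. The groups overlapped for both, with cko replicate 2 highest. Of the 14 macrophage genes 7 were highest in cko replicate 2 and 7 in wt replicate 1, among the latter the Kupffer cell genes Vsig4 (23.0 and 14.1 FPKM in wt, 13.3 and 17.7 FPKM in cko) and Clec4f (38.5 and 24.0 FPKM in wt, 22.6 and 33.7 FPKM in cko). The part of monocyte and macrophage content in the values of the 10 genes was not tested.

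The neutrophil list, 8 higher and 10 lower in cko of 18 tested, had summed FPKM of 163161 and 139430 in wt and 113774 and 94061 in cko, the bulk of all marker expression. Of 10 tested hepatocyte genes 9 were lower in cko, with summed FPKM of 93.5 and 159 in wt and 68.6 and 82.2 in cko. Of 7 lymphocyte genes 6 were lower, and of 8 genes of megakaryocytes, mast cells and basophils 6 were lower. Of the 6 genes that define myeloid cells 4 were higher and 2 lower.

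For the other genes of heme and iron metabolism, the median difference lay near that of all genes. Of 90 genes in 6 lists, 79 were measured and 58 were tested, of which 36 were higher and 22 lower in cko. Without overlap were 21 higher and 12 lower genes, beside 33.6% and 18% of all genes. At an unadjusted p under 0.05, 5 were higher and 5 lower, beside 11.4% and 4.95% of all genes. None of the 58 passed the 2 stricter thresholds. Their median log2 fold change was 0.07, beside 0.09 over all tested genes and 0.62 over the 10.

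**Figure D4:**
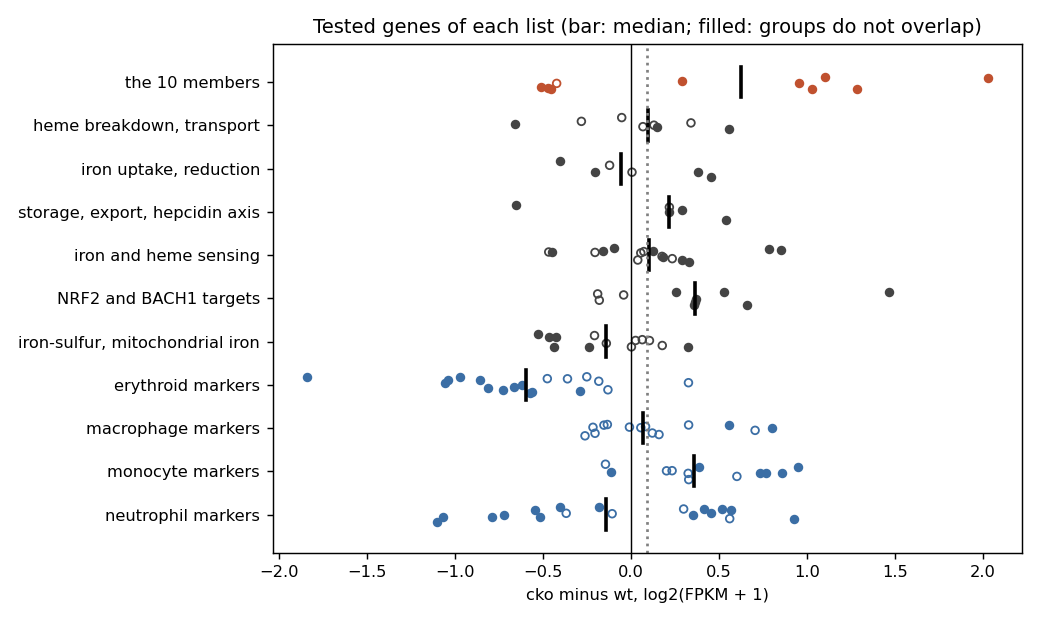
Log2 fold change (cko minus wt, log2(FPKM + 1)) of each tested gene in the 10 genes, the 6 heme and iron lists and 4 marker lists, with the list median as a bar, filled points where the groups did not overlap and a dotted line at the median of all tested genes. The 10 genes have a median of 0.62, the erythroid list has a median of −0.60, and the heme and iron lists have medians between −0.14 and 0.36.

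Among the lists, the targets of NRF2 and BACH1, the activator and the heme-sensitive repressor that act on Hmox1, had the highest median. Of 10 tested, 7 were higher and 3 lower in cko, and the median log2 fold change was 0.36. All 7 higher genes were without overlap, beside 33.6% of all genes. Of the 7, 2 had an unadjusted p under 0.05, beside 11.4% of all genes that were higher at that p. Slc7a11, the cystine transporter, had 0.689 and 0.496 FPKM in wt and 0.947 and 8.89 FPKM in cko, so that cko replicate 2 alone stood high (log2 fold change 1.46, SE 0.74, adjusted p = 0.376). Txnrd1, thioredoxin reductase, had 5.24 and 5.50 FPKM in wt and 6.87 and 11.8 FPKM in cko, with the groups apart.

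The regulators numbered 16 tested genes, 11 higher and 5 lower in cko, with a median log2 fold change of 0.10. Nfe2l2, the gene of NRF2, had 59.9 and 51.9 FPKM in wt and 57.0 and 75.6 FPKM in cko, and Bach1 had 9.22 and 5.97 FPKM in wt and 6.38 and 9.39 FPKM in cko, both with overlap. Hif1a, the oxygen-sensitive transcription factor, had 11.3 and 13.7 FPKM in wt and 15.5 and 34.7 FPKM in cko (log2 fold change 0.85, SE 0.37, adjusted p = 0.332). Maff, a small MAF protein that pairs with NRF2 or BACH1, had 0.977 and 0.476 FPKM in wt and 1.66 and 2.24 FPKM in cko. Both were without overlap and highest in cko replicate 2.

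On the side of lower genes, Ncoa4, the receptor that delivers ferritin to lysosomes for breakdown, had 57.3 and 53.2 FPKM in wt and 39.4 and 30.5 FPKM in cko. This was the opposite direction to Fth1, with both cko libraries below both wt libraries (log2 fold change −0.66, SE 0.17, adjusted p = 0.216). Fech, which inserts iron to make heme, had 82.7 and 64.6 FPKM in wt and 52.7 and 48.2 FPKM in cko. Abcg2, a transporter known to export porphyrins and heme, had 6.43 and 4.66 FPKM in wt and 3.21 and 3.01 FPKM in cko. Isca2, an iron-sulfur assembly factor, had 52.2 and 43.1 FPKM in wt and 34.3 and 33.9 FPKM in cko. All 4 were lower in both cko libraries, as the erythroid markers were, and the part of red cell precursors in these values was not tested.

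The remaining lists were near the value of all genes. Heme breakdown and transport had 5 genes higher and 3 lower of 8 tested, uptake and reduction 3 and 3 of 6, storage, export and hepcidin 4 and 1 of 5, and iron-sulfur and mitochondrial iron 6 and 7 of 13. Their median log2 fold changes were 0.10, −0.06, 0.22 and −0.14. Slc48a1, which moves heme out of the phagolysosome, had 39.7 and 40.9 FPKM in wt and 48.5 and 36.8 FPKM in cko, with overlap. Cp, the ferroxidase ceruloplasmin, was at most 0.1004 FPKM in any library and was not tested.

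Among 155 genes of the heme, iron and marker lists and the 10 themselves, those whose values over the 4 libraries were most like Hmox1 were Fth1, Fbxl5 and Csf1r, at Euclidean distances of 0.236, 0.305 and 0.422 between centred log2(FPKM + 1) values. For Slc40a1 they were Isca1, Skp1a and the neutrophil collagenase gene Mmp8 (0.123, 0.154 and 0.161), each lower in both cko libraries. For Tfrc they included the macrophage gene Vsig4 and Ciao1 (0.212 and 0.277), both highest in wt replicate 1. Over 4 libraries these distances are a description.

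In the promoter windows of RefSeq (GRCm38.p6, 250 bases before to 50 after a gene start), 6 of the 10 genes had an entry, with 9 windows. The antioxidant response letters TGANNNNGC, searched on both strands, were in 4 of the 9, at Slc11a1, Steap4 and both windows of Blvrb, and in 13581 of all 32851 windows (41.3%). The match is thus common among all windows, and among the 6 genes with an entry it did not separate the higher from the lower. Hmox1, Slc40a1, Slc11a2 and Fbxl5 had no window, and sites outside the windows were not searched. The search therefore cannot tell whether such letters go with the differences of the 10 genes.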

How the data were processed

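RNA-seq of 4 libraries (2 wt, 2 cko, grouped by the genotype in their labels) was used. The authors deposited FPKM values for 24706 genes, 1 library per file, called RPKM in the methods of the study. The submitters' processing notes name Bowtie2 2.2.3, TopHat2 2.0.12, HTSeq 0.6.0 and mm9, whose roles are not given, although GENCODE M21 (GRCm38) has the same start and end for 92.6% of the genes. The values were not scaled further between libraries. Since FPKM of single-exon genes came in steps of 1 read (tolerance 0.02 reads), these steps gave the library totals and the reads of 98.0% of genes. The length of Fth1, whose position differs from GENCODE M21, was searched for. A gene of 1 kb gained 0.0450 to 0.0565 FPKM per read.

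Groups were compared with limma 3.58.1 in R 4.3.3 (lmFit, eBayes with a trend, two-sided) on log2(FPKM + 1), with a filter at a mean of 1 FPKM that left 10779 genes, with Benjamini-Hochberg adjustment over all of them and no covariate. Thresholds were those of the study (log2 fold change of at least 1 with adjusted p under 0.05, and above 1 with unadjusted p under 0.01) and an unadjusted p under 0.05. An exact permutation test of 2 against 2 libraries cannot go below p = 0.333 and was not used. The fit was tested on simulated reads with planted changes and the same spread setting for all genes. That checks the code and does not show how the fit performs on these libraries.

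The 10 genes and all lists were chosen with earlier results of these data known, so no list is independent evidence and no list was tested as a set. Named genes were the 10, a set of pathway genes, the 4 higher and 4 lower pathway genes with the largest change whose groups did not overlap, the 3 genes most like each of Hmox1, Slc40a1 and Tfrc (1 of them is not reported here), leading markers, and Pdcd1. Genes named outside this rule (Lyz2, Xist, Ddx3y, Eif2s3y, Itgam, Ptprc, Alas2, Adgre1, Marco, Clec4f, Folr2, Csf1r and ferritin pseudogenes) were chosen after their values were seen. Alternatives were a replicate block, voom on the recovered reads, a pseudocount of 0.1, leaving out each library, a filter at 5 FPKM or none, eBayes with no trend, median-of-ratios scaling, and rescaling without the markers of erythroid cells and hepatocytes. After the data were seen, a crossed replicate block and the log2 ratio of the group means were added. Python 3.11.15 and matplotlib 3.10.9 made the tables and figures.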

Additional observations from a re-analysis of the deposited data

How the results depend on the processing

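The log2 fold changes of the 10 genes kept their direction under every alternative that was run, but many of these runs could not change it. For the 9 genes whose groups did not overlap, leaving out 1 library could not turn the sign. Under the filters, without a trend and with the replicate blocks, the log2 fold changes were the same as in the main fit. With 1 library left out in turn (the lone library being assumed to vary like the other group), they ranged from 0.82 to 1.75 for Hmox1, −0.69 to −0.33 for Blvrb, 0.55 to 1.66 for Fth1, 0.17 to 0.41 for Ftl1, −0.57 to −0.34 for Slc40a1, −0.80 to −0.05 for Tfrc, 0.40 to 1.51 for Slc11a1, −0.56 to −0.39 for Slc11a2, 1.57 to 2.49 for Steap4 and 0.68 to 1.38 for Fbxl5. Their median ranged from 0.28 to 0.90 and was 0.96 at a minimum mean of 5 FPKM, where Slc11a2 was not tested. Of the 10, the number at a log2 fold change above 1 and an unadjusted p under 0.01 (3 as reported) ranged from 0 to 5, and the number at an unadjusted p under 0.05 (7 as reported) from 3 to 6. The first number was 1, Steap4, without a filter, after median-of-ratios rescaling and without a trend, and 4 with voom and with the crossed block.

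Replicate numbers of the labels did not pair the libraries (correlation of the replicate differences −0.16). With the replicate number as a block, 1 of the 10, Steap4, passed the first threshold and 258 genes did in all, and 5 of the 10 had an unadjusted p under 0.05. The crossed pairing, chosen after seeing the data, gave 4 and 8 of the 10, 363 genes in all and 1 gene at an adjusted p under 0.05.

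Over all genes, 0 were called at an adjusted p under 0.05 as reported and 0 without any single library, and 4 with voom. The count at the first threshold was 247 as reported, 126 at a minimum mean of 5 FPKM, and 131 (without cko replicate 2) to 462 (without cko replicate 1) with 1 library left out. The count at an unadjusted p under 0.05 was 1768 as reported, 1135 at a minimum mean of 5 FPKM, and 845 (without wt replicate 1) to 1732 with 1 library left out. The median log2 fold change of heme breakdown and transport genes turned from 0.10 to −0.0169 after median-of-ratios rescaling, and ranged from −0.0150 (without cko replicate 2) to 0.159 with 1 library left out, and that of the regulators to −0.0065 after that rescaling. The iron-sulfur list turned from −0.14 to 0.0483 with erythroid and hepatocyte genes removed and the libraries rescaled to equal sums of FPKM. The same run moved the median of all tested genes from 0.09 to 0.27. The removed genes held at most 0.813% of the FPKM of a library, and the part of their removal was not tested apart from the rescaling. Slc11a2 (73 reads in cko replicate 1) and Steap4 (56 reads in wt replicate 2) rest on the fewest reads.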
